A study of Mus musculus with 8 samples.

Results

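The genes described are 10 MAP kinase dual-specificity phosphatases, *Dusp1*, *Dusp2*, *Dusp4*, *Dusp5*, *Dusp6*, *Dusp7*, *Dusp8*, *Dusp10*, *Dusp14* and *Dusp16*, taken by name from the 45706 genes of the deposited table. They were read in hippocampal neurons cultured from C57/Bl6 wild-type mice at embryonic day 18. The wells received 1 µM of the peptide melanin-concentrating hormone (MCH) or the vehicle, H2O, for 4 h, with 4 wells per treatment numbered as replicates 1 to 4. The sample labels also carry an Alzheimer's disease model tag, but their genotype entry and the paper's methods give wild-type neurons. According to the methods, the wells came from 2 cultures, each giving 2 wells of either treatment, and no replicate was assigned to a culture here. *P* values therefore measure the spread between wells, part of which may be technical. An antimitotic drug had been given to the cultures against dividing glia.

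MAP kinases such as ERK, JNK and p38 are switched on by phosphorylation of a threonine and a tyrosine, and dual-specificity phosphatases remove both phosphates. Many of these phosphatase genes are themselves transcribed in response to ERK activity, so that the enzymes act as negative feedback on the pathway. In neurons, ERK is activated by synaptic activity and calcium entry, and it contributes to the induction of immediate early genes. The family falls into classes by location and substrate. *Dusp1*, *Dusp2*, *Dusp4* and *Dusp5* encode inducible nuclear enzymes, *Dusp6* and *Dusp7* cytoplasmic enzymes directed at ERK, and *Dusp8*, *Dusp10* and *Dusp16* enzymes directed at JNK and p38. *Dusp14* encodes a small atypical enzyme that lacks the kinase interaction motif of the others.

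Library totals ranged from 26083936 to 28240903 estimated counts in vehicle-treated wells and from 26806683 to 31844861 in MCH-treated wells. Levels are given as CPM, counts relative to the library total as scaled by edgeR's TMM method. Where genes are compared with each other they are given as TPM, the same kind of share after division by transcript length. All 10 phosphatase genes were among the 14962 genes that passed the filter on low counts and were tested with edgeR's quasi-likelihood test, at a threshold of 0.05 on the Benjamini–Hochberg adjusted *P* value. Replicates 1 and 2 of both treatments stood apart from replicates 3 and 4 across all genes. Summed astrocyte markers reached 1090 to 1200 CPM in replicates 1 and 2 and 2325 to 2658 CPM in replicates 3 and 4. They overlapped between treatments, at 1090 to 2514 CPM with vehicle and 1157 to 2658 CPM with MCH. Replicates 1 and 2, and likewise 3 and 4, deviated together from their treatment means whether or not they shared a number. A block of replicates 1 and 2 against 3 and 4 follows this split and was fitted. A fit with the replicate number as a block is given beside the main fit where it changes a call. The labels do not say what a number marks, so pairing by number is an assumption of that fit. Summed neuronal markers lay between 8368 and 8748 CPM in replicates 1 and 2 and between 7667 and 7890 CPM in replicates 3 and 4. Summed markers of the oligodendrocyte lineage reached 57.3 to 67.9 CPM in replicates 1 and 2 and 126 to 147.5 CPM in replicates 3 and 4. Of the 8 markers of this lineage, *Sox10* and *Mog* were at 0 in every well. Over the 8 wells *Olig1* ranged from 22.9 to 101.4 CPM and *Mbp* from 29.9 to 39.2 CPM, so the sum mainly followed *Olig1*. In bulk RNA, fewer cells of a type and less RNA per cell cannot be told apart.

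The lowest values with MCH relative to vehicle were those of *Dusp6*, which encodes a cytoplasmic ERK phosphatase, and of *Dusp1* and *Dusp4*, which encode nuclear ones. None of the 10 genes passed the threshold in the main fit, in which 35 of the 14962 genes did (0.234%). At an unadjusted *P* value under 0.05, 5 of the 10 were found, against 8.5% of all genes in the same edgeR quasi-likelihood test. These were *Dusp1*, *Dusp4*, *Dusp6* and *Dusp7*, lower with MCH, and *Dusp2*, higher. *Dusp1*, *Dusp4*, *Dusp6* and *Dusp7* fell in the fit with the replicate block, which makes 4 of 10 against 2.25% of all genes called lower. The same 4 genes fell with a block of replicates 1 and 2 against 3 and 4, where 2.61% of all genes were called lower. DESeq2's Wald test without a block called *Dusp1*, *Dusp4* and *Dusp6*, against 0.742% of genes called lower, and gave *Dusp2* no adjusted *P* value. Without the filter on low counts edgeR called *Dusp1* and *Dusp6*, against 0.166% of genes called lower, and limma's voom called none of the 10. The highest MCH-treated well lay under the lowest vehicle-treated well in *Dusp1*, *Dusp4*, *Dusp6* and *Dusp7*, as it did in 2.96% of all genes tested. The median log2 fold change was −0.18 over the 10 genes and −0.0027 over all genes tested. The 10 genes were chosen with earlier results of these data known, so the shares over all genes are no independent test of them.

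**Figure D1:**
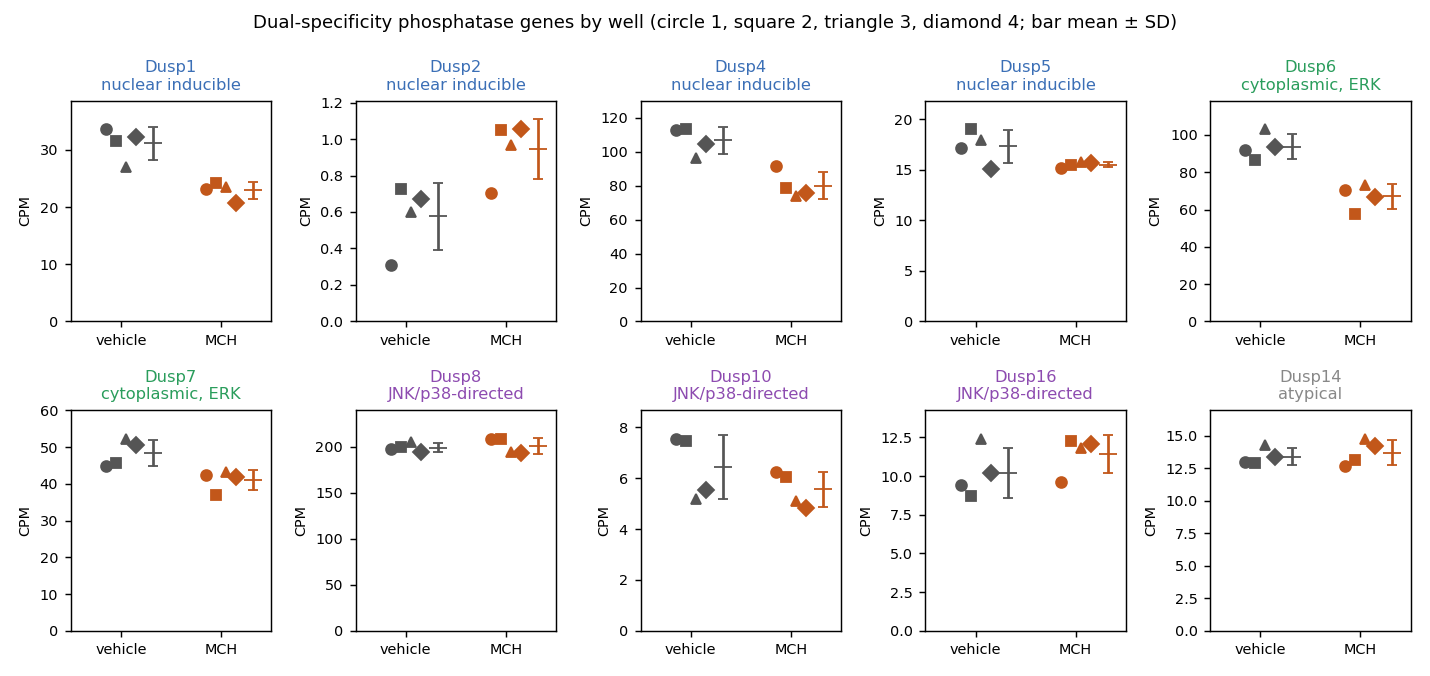
CPM of each phosphatase gene (y axis, from 0, own scale per panel) in the 4 vehicle-treated and 4 MCH-treated wells, with marker shapes for replicates 1 to 4 and bars for the mean ± SD. *Dusp1*, *Dusp4*, *Dusp6* and *Dusp7* are without overlap, MCH being lower, and in the other 6 genes the treatments overlap.

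*Dusp6* (ENSMUSG00000019960) lies on chromosome 10 of GRCm38, plus strand, from 99263231 to 99267489, and encodes the cytoplasmic phosphatase that acts mainly on ERK. It had 91.9, 86.6, 103 and 93.7 CPM in vehicle replicates 1 to 4, and 70.7, 57.9, 73.1 and 66.8 CPM in MCH replicates 1 to 4. The lowest vehicle-treated well stood above the highest MCH-treated well, and MCH replicate 2 was the lowest of all. The means were 93.8 ± 6.85 CPM with vehicle and 67.1 ± 6.70 CPM with MCH (SD, n = 4 wells). This is a level 0.716 times that with vehicle. On the log2 scale the change of −0.48 (standard error 0.078) missed the threshold without a block (edgeR quasi-likelihood, Benjamini–Hochberg adjusted *P* = 0.0563). Blocked by replicate number, *Dusp6* fell by the same amount (−0.48, standard error 0.038, edgeR quasi-likelihood, Benjamini–Hochberg adjusted *P* = 4.68e-07). With replicates 1 and 2 against 3 and 4 as the block, the adjusted *P* value was higher (−0.48, standard error 0.0615, edgeR quasi-likelihood, Benjamini–Hochberg adjusted *P* = 0.00177). Over the 10 alternatives on all wells, the Benjamini–Hochberg adjusted *P* value of *Dusp6* (edgeR, DESeq2 or limma) ranged from 4.68e-07 to 0.179. The difference in mean log2 CPM was −0.48 within replicates 1 and 2 and −0.49 within replicates 3 and 4.

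*Dusp7*, the other cytoplasmic ERK phosphatase (ENSMUSG00000053716, chromosome 9, plus strand, 106368632 to 106375724), differed less in these wells. Its level was 44.9, 45.8, 52.3 and 50.7 CPM in vehicle replicates 1 to 4 and 42.5, 37.1, 43.2 and 41.8 CPM in MCH replicates 1 to 4. The treatments did not overlap, but MCH replicate 3 came close to vehicle replicate 1. Its log2 fold change was −0.23 (standard error 0.067, edgeR quasi-likelihood, Benjamini–Hochberg adjusted *P* = 0.315). *Dusp7* fell once the replicate number was a block (−0.23, standard error 0.047, edgeR quasi-likelihood, Benjamini–Hochberg adjusted *P* = 0.00745), and over the 10 alternatives its adjusted *P* value ranged from 0.00509 to 0.677. To ask whether *Dusp6* changed by more than *Dusp7*, the difference in log2 CPM between them was taken in each well. *Dusp6* exceeded *Dusp7* by 0.95 ± 0.066 with vehicle and by 0.70 ± 0.054 with MCH (SD, n = 4 wells). No vehicle-treated well overlapped the MCH-treated wells (exact permutation test, two-sided, *P* = 0.0286, which is the lowest value this design can give). After Benjamini–Hochberg adjustment over the 4 pairs compared in this way, the exact permutation test gave 0.114, which misses the threshold. This test takes no account of the replicate numbers, within which the change was −0.30, −0.28, −0.22 and −0.21 for numbers 1 to 4, all of one sign. From TPM in place of CPM the difference between the treatments was −0.24 (exact permutation test, *P* = 0.0571).

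*Dusp1* and *Dusp4* encode inducible nuclear phosphatases that act on several MAP kinases. *Dusp1* (ENSMUSG00000024190, chromosome 17, minus strand, 26505590 to 26562128) had 33.6, 31.5, 27.1 and 32.3 CPM in vehicle replicates 1 to 4, and 23.2, 24.3, 23.5 and 20.8 CPM in MCH replicates 1 to 4. Vehicle replicate 3 was the lowest of its treatment and still above every MCH-treated well. The log2 fold change of *Dusp1* was −0.44 (standard error 0.076, edgeR quasi-likelihood, Benjamini–Hochberg adjusted *P* = 0.0742), a level 0.737 times that with vehicle. *Dusp1* fell in the blocked fit (−0.44, standard error 0.064, edgeR quasi-likelihood, Benjamini–Hochberg adjusted *P* = 0.000717), and over the 10 alternatives its adjusted *P* value ranged from 0.000149 to 0.215. Without vehicle replicate 3 it passed without a block (−0.50, edgeR quasi-likelihood, Benjamini–Hochberg adjusted *P* = 0.0326), against 0.159% of genes called lower in that fit. In the other 7 fits that leave out 1 well, *Dusp1* did not pass, at edgeR quasi-likelihood, Benjamini–Hochberg adjusted *P* values of 0.17 to 0.283.

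*Dusp4* (ENSMUSG00000031530, chromosome 8, plus strand, 34807297 to 34819894) was the nuclear member with the highest level. It had 112.8, 113.2, 96.4 and 104.3 CPM in vehicle replicates 1 to 4, and 91.5, 78.5, 74.0 and 75.7 CPM in MCH replicates 1 to 4. MCH replicate 1 stood above the other MCH-treated wells, near vehicle replicate 3. *Dusp4* had a log2 fold change of −0.42 (standard error 0.077, edgeR quasi-likelihood, Benjamini–Hochberg adjusted *P* = 0.0941), a level 0.75 times that with vehicle. The blocked fit also called *Dusp4* (−0.42, standard error 0.039, edgeR quasi-likelihood, Benjamini–Hochberg adjusted *P* = 4.14e-06), and over the 10 alternatives its adjusted *P* value ranged from 4.14e-06 to 0.253. Without MCH replicate 1 it passed without a block (−0.48, edgeR quasi-likelihood, Benjamini–Hochberg adjusted *P* = 0.0312), against 0.165% of genes called lower in that fit. The other 7 such fits did not call *Dusp4* and gave edgeR quasi-likelihood, Benjamini–Hochberg adjusted *P* values of 0.0872 to 0.376. *Dusp1* and *Dusp4* were close in size. Their within-well log2 difference moved by −0.019 (standard error 0.084) from vehicle to MCH (two-sided exact permutation test, *P* = 0.857, and 0.857 after Benjamini–Hochberg adjustment over the 4 pairs).

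*Dusp5* and *Dusp2*, the remaining nuclear members, did not pass in any fit run. *Dusp5*, which encodes a nuclear phosphatase for ERK (ENSMUSG00000034765, chromosome 19, plus strand, 53529109 to 53542431), had 17.2, 19.0, 17.9 and 15.1 CPM in vehicle replicates 1 to 4. It had 15.2, 15.5, 15.7 and 15.6 CPM in the MCH-treated wells. The MCH-treated wells were close together and overlapped vehicle replicate 4, the lowest of its treatment. The log2 fold change of *Dusp5* was −0.16 (standard error 0.073, edgeR quasi-likelihood, Benjamini–Hochberg adjusted *P* = 0.604). The log2 difference between *Dusp4* and *Dusp5* moved by −0.27 (standard error 0.11) from vehicle to MCH (two-sided exact permutation test, *P* = 0.0857, and 0.171 after adjustment over the 4 pairs). *Dusp2* (ENSMUSG00000027368, chromosome 2, plus strand, 127336159 to 127338376), best known from activated lymphocytes, was barely detected. It had 8, 20, 17 and 18 estimated counts in vehicle replicates 1 to 4 and 22, 28, 28 and 30 in MCH replicates 1 to 4. Scaled to CPM, MCH replicate 1 (0.703) was below vehicle replicate 2 (0.725), so the treatments overlapped. The log2 fold change of 0.70 had a standard error of 0.30 (edgeR quasi-likelihood, Benjamini–Hochberg adjusted *P* = 0.563), and *Dusp2* was the member whose direction went against the rest of the nuclear class.

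**Figure D2:**
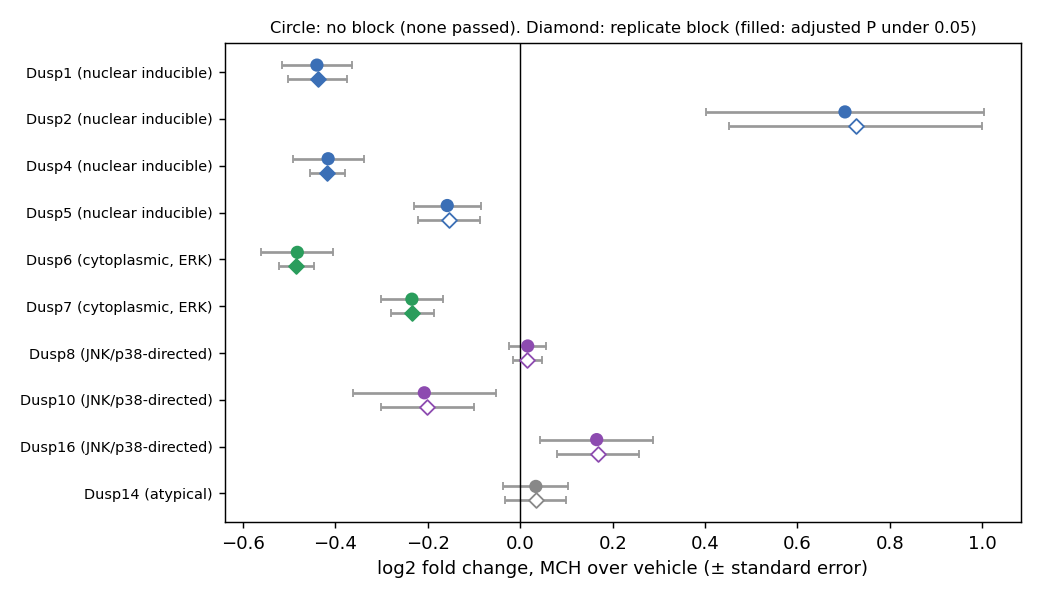
Log2 fold change of MCH over vehicle (x axis) with its standard error for the 10 genes, from edgeR without a block (circles) and with the replicate block (diamonds, filled where the adjusted *P* value is under 0.05). The sizes are alike in both fits, and *Dusp1*, *Dusp4*, *Dusp6* and *Dusp7* are the filled diamonds, at −0.44, −0.42, −0.48 and −0.23.

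None of the 3 phosphatases directed at JNK and p38 passed in any fit run, and they differed in direction. *Dusp8* (ENSMUSG00000037887, chromosome 7, minus strand, 142079490 to 142095843) had 197.0, 199.5, 205.3 and 193.8 CPM in vehicle replicates 1 to 4 and 208.5, 208.6, 194.6 and 192.8 CPM in MCH replicates 1 to 4. The treatments overlapped over their whole range, and with 5087 counts or more in every well this was the most deeply counted member. Its log2 fold change was 0.016 with a standard error of 0.04 (edgeR quasi-likelihood, Benjamini–Hochberg adjusted *P* = 0.994), the smallest standard error of the 10 genes. *Dusp16* (ENSMUSG00000030203, chromosome 6, minus strand, 134715468 to 134792625) had 9.45, 8.73, 12.4 and 10.2 CPM with vehicle and 9.615, 12.2, 11.8 and 12.1 CPM with MCH, in the order of the replicates. The log2 fold change of *Dusp16* was 0.17 (standard error 0.12, edgeR quasi-likelihood, Benjamini–Hochberg adjusted *P* = 0.799), with vehicle replicate 3 above all MCH-treated wells. The log2 difference between *Dusp8* and *Dusp16* moved by −0.16 (standard error 0.14, two-sided exact permutation test, *P* = 0.314, and 0.419 after adjustment over the 4 pairs).

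*Dusp10* (ENSMUSG00000039384, chromosome 1, plus strand, 184013302 to 184075636), which encodes a phosphatase for JNK and p38, differed more between replicate numbers than between treatments. It had 7.55 and 7.47 CPM in vehicle replicates 1 and 2 and 5.18 and 5.54 CPM in vehicle replicates 3 and 4. With MCH it had 6.26 and 6.04 CPM in replicates 1 and 2 and 5.12 and 4.845 CPM in replicates 3 and 4. Replicates 3 and 4 were below replicates 1 and 2 in both treatments, by −0.48 with vehicle and −0.30 with MCH on the log2 scale. The same replicates 3 and 4 held the higher astrocyte markers given above, whose part in the level of *Dusp10* was not tested. Within each replicate number *Dusp10* was lower with MCH, by −0.30 to −0.017, and its log2 fold change was −0.21 (standard error 0.16, edgeR quasi-likelihood, Benjamini–Hochberg adjusted *P* = 0.801). *Dusp14* (ENSMUSG00000018648, chromosome 11, minus strand, 84048041 to 84069261), the atypical member, lay between 12.9 and 14.3 CPM with vehicle and between 12.7 and 14.8 CPM with MCH (log2 fold change 0.034, standard error 0.07, edgeR quasi-likelihood, Benjamini–Hochberg adjusted *P* = 0.989).

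**Figure D3:**
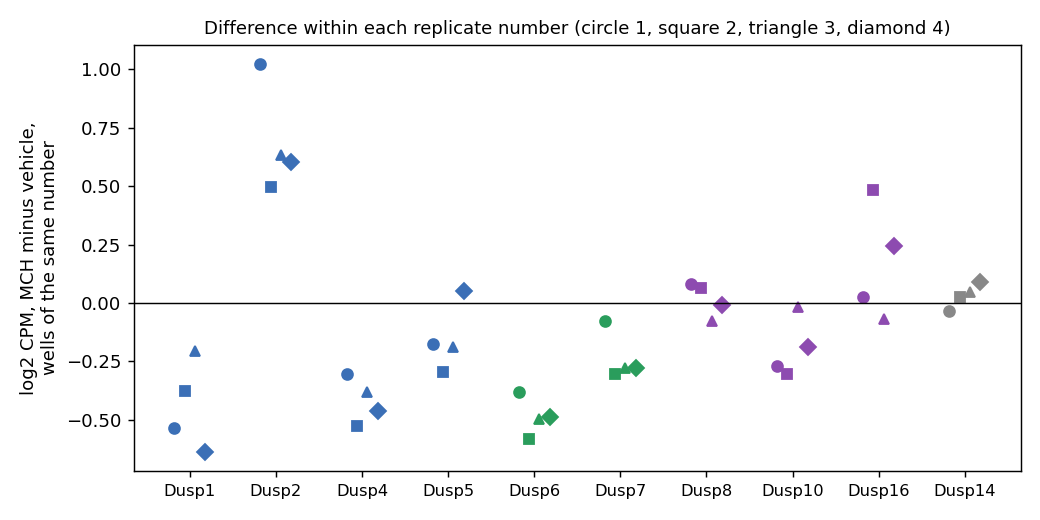
Difference in log2 CPM between the MCH-treated and the vehicle-treated well of the same replicate number (y axis) for each gene, with marker shapes for numbers 1 to 4 and colors for the classes. *Dusp1*, *Dusp4*, *Dusp6*, *Dusp7* and *Dusp10* are below 0 in all 4 numbers, *Dusp2* is above 0 in all 4, and *Dusp8* is split.

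Read by number, *Dusp6* was lower by −0.58 to −0.38, *Dusp4* by −0.53 to −0.30, *Dusp1* by −0.64 to −0.20 and *Dusp7* by −0.30 to −0.077 in log2 CPM. Over all genes tested, 13.8% were lower in all 4 numbers, as were 5 of these 10. By class, the median log2 fold change was −0.29 over the 4 nuclear genes, −0.36 over both cytoplasmic genes and 0.016 over the 3 genes directed at JNK and p38. In the fit blocked by replicate number 2 of 4 nuclear, 2 of 2 cytoplasmic and 0 of 3 JNK/p38-directed genes fell, against 2.25% of all genes called lower. The classes as such were not tested against each other.

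Compared per length, *Dusp8* had the highest summed level of the member genes, at 92.6 ± 5.86 TPM with vehicle (SD, n = 4 wells). *Dusp4* (72.2 ± 4.82 TPM) and *Dusp6* (62.2 ± 5.11 TPM) followed. The *Dusp8* level summed *Dusp8-201* (70.8 TPM with vehicle) and *Dusp8-202* (21.8 TPM), while that of *Dusp4* came from a single transcript. *Dusp4* and *Dusp6* overlapped in the vehicle-treated wells, and *Dusp4* was above *Dusp6* in 7 of the 8 wells. Next came *Dusp1* (31.1 ± 2.74 TPM) and *Dusp7* (30.6 ± 1.48 TPM), which could not be ordered. Their means changed places with MCH, at 23.1 ± 1.56 TPM for *Dusp1* and 26.5 ± 3.28 TPM for *Dusp7*. *Dusp14* (21.3 ± 1.20 TPM) and *Dusp5* (13.1 ± 1.21 TPM) each stood apart from their neighbors in the vehicle-treated wells. With MCH the wells of *Dusp14* (19.4 to 23.3 TPM) overlapped those of *Dusp1* (20.9 to 24.4 TPM) and *Dusp7* (22.1 to 29.2 TPM). *Dusp10* and *Dusp16*, at 4.26 ± 0.796 and 3.73 ± 0.698 TPM, overlapped, and *Dusp2* was last at 0.71 ± 0.226 TPM.

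Summed over the 10 genes, the level was 332 ± 6.31 TPM with vehicle and 284 ± 9.50 TPM with MCH, and the wells did not overlap. The JNK/p38-directed genes made up 30.3 ± 1.22% of this sum with vehicle and 35.3 ± 1.82% with MCH, with no overlap between the wells. The nuclear genes made up 35.3 ± 2.34% and 32.1 ± 1.09%, and the cytoplasmic genes 28.0 ± 1.60% and 25.2 ± 2.14%, and both overlapped. A share of a sum moves with the other members, so these shares restate the levels above and were not tested.

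**Figure D4:**
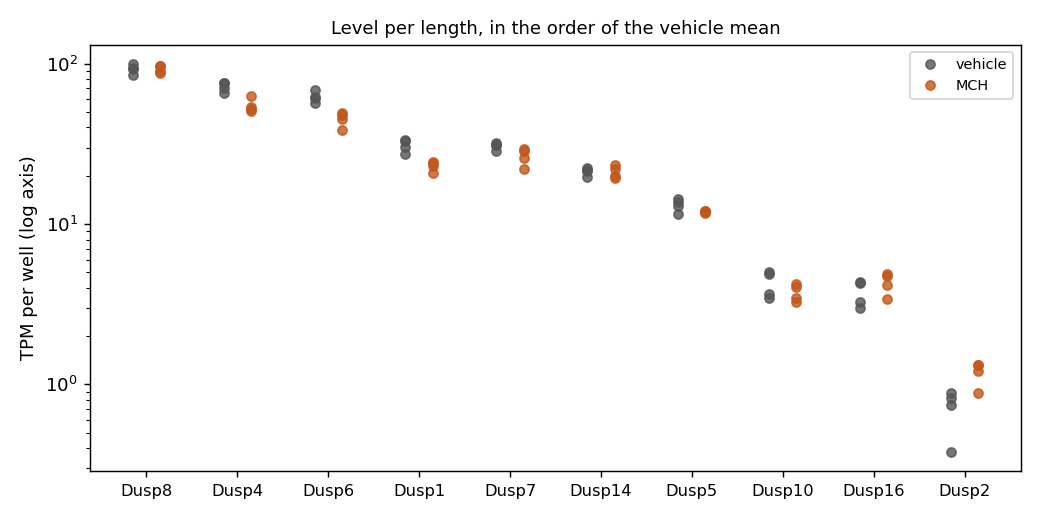
TPM per well (log y axis) of the 10 genes in the order of their vehicle mean, with vehicle-treated wells in gray and MCH-treated wells in orange. *Dusp8* leads at 92.6 TPM with vehicle and 92.4 TPM with MCH, and *Dusp2* is last.

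Most members were read from a single transcript. *Dusp4*, *Dusp5* and *Dusp6* have 1 transcript each in the deposited tables, and all TPM of *Dusp2* and *Dusp10* fell on the protein-coding *Dusp2-201* and *Dusp10-201*. The coding transcript *Dusp1-202* (4 exons, 26505590 to 26508519) held 94.1 ± 1.90% of the *Dusp1* TPM with vehicle and 96.3 ± 2.51% with MCH. It stood at 29.2 ± 2.48 TPM with vehicle and 22.2 ± 1.40 TPM with MCH. The retained-intron transcript *Dusp1-203* was at 0.462 ± 0.235 TPM with vehicle and 0.133 ± 0.104 TPM with MCH, and its wells overlapped. *Dusp7-201* held 87.3 ± 6.19% of the *Dusp7* TPM with vehicle and 87.9 ± 8.95% with MCH, and *Dusp16-201* held 95.3% and 93.8%.

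*Dusp8* and *Dusp14* were split among coding transcripts. *Dusp8-201* stood at 70.8 ± 1.78 TPM with vehicle and 73.1 ± 2.90 TPM with MCH, and the shorter *Dusp8-202* at 21.8 ± 4.61 and 19.3 ± 2.12 TPM. For *Dusp14*, whose total was level, *Dusp14-202* held 48.0 ± 15.3% and 47.6 ± 5.19% of the TPM, and *Dusp14-203* 39.4 ± 13.7% and 30.4 ± 4.75%. *Dusp14-201* was the transcript of this gene whose wells did not overlap. It had 3.11, 2.74, 0.883 and 3.00 TPM in vehicle replicates 1 to 4 and 5.12, 3.81, 4.25 and 5.35 TPM in MCH replicates 1 to 4. Its share was 11.5 ± 5.09% with vehicle and 22.1 ± 3.99% with MCH. These transcripts share their downstream exons, salmon divides their reads by estimate, and the difference was seen after looking at the values and was not tested.

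The annotated span of *Dusp1* reaches into *Ergic1* on the opposite strand, but its coding transcript *Dusp1-202* (26505590 to 26508519) lies well short of that gene. The span also overlaps *Gm8225* on the opposite strand, and *AC122252.4* and *AC122252.1* on its own strand, which strand cannot set apart. *Dusp5*, *Dusp8*, *Dusp10* and *Dusp16* also overlap genes annotated on the opposite strand. The library kit marks strand, but the strand setting of the quantification was not given in the sources used here.

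Short stretches upstream of 3 start sites are shown because they hold response elements found among these genes. They come from members whose wells did and did not overlap between treatments. RefSeq windows on GRCm38.p6, from 250 bases before to 50 after the start, were matched for 9 of the 10 genes by symbol, and *Dusp4* had no entry. They were searched on both strands for the cyclic AMP response element (CRE, TGACGTCA), its half-site TGACG, which lies inside the full element, the E-box CACGTG, the AP-1 site TGANTCA, an ETS site CCGGAAGT, TATAAA and the CArG box bound by serum response factor. Capitals mark a CRE, a half-site on either strand, an E-box or a CArG box. The *Dusp1* stretch is chr17:26508573-26508672 and the *Dusp8* stretch chr7:142095335-142095434, both on the minus strand and outside annotated exons. The *Dusp8* stretch lies upstream of *Dusp8-201* but within the span of *Dusp8-202* (142083594 to 142095843). The *Dusp5* stretch is chr19:53529010-53529099 on the plus strand, within an exon of the antisense RNA *AC137853.2*.
Dusp1: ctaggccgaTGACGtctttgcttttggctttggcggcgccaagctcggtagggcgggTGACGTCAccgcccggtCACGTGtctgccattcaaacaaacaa
Dusp8: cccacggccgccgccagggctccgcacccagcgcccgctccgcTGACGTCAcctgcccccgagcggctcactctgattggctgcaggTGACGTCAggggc
Dusp5: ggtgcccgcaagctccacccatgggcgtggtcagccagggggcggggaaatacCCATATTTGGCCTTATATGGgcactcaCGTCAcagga

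*Dusp1*, lower with MCH without overlap but not called in the main fit, held 1 full CRE at −143 from the start. It also held another half-site at −191 and an E-box at −126. *Dusp8*, whose level overlapped between treatments, held 2 full CREs, at −107 and −63. A full CRE was found in 1.79% of the 32851 windows of the table. *Dusp5* held 2 CArG boxes side by side, at −82 and −72, where 1.63% of windows hold any. It also held a half-site, as did *Dusp2* and *Dusp16* (20.8% of windows), and *Dusp2* held an E-box (7.15%). In the windows of *Dusp6*, *Dusp7*, *Dusp10* and *Dusp14* none of these letters were found. None of the 9 windows held the AP-1 (7.81% of all windows), ETS (3.89%) or TATAAA (13.6%) letters. The letters were not tested against the changes with MCH, and *Dusp4*, also lower with MCH, had no window. Whether a factor binds at these letters was not measured.

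The kinases that these phosphatases act on, and the other phosphatases of the family, were examined as lists. Apart from the ERK output genes given last, none of their members passed in edgeR's main fit, in DESeq2 (which gave 6 of them no adjusted *P* value) or in limma's voom. At an unadjusted *P* value under 0.05, edgeR's quasi-likelihood test found 8.5% of all genes tested. It found 0 of 12 other dual-specificity phosphatases, 0 of 2 tyrosine phosphatases, 1 of 13 MAP kinases and 1 of 7 MAP kinase kinases. It also found 4 of 26 genes for RAS, RAF and MAP3 kinases and 2 of 15 scaffolds and downstream kinases. Of 16 other dual-specificity phosphatases, 12 were tested, 6 were lower and 6 higher, with a median log2 fold change of 0.0065 and a range from −0.073 in *Dusp3* to 0.25 in *Styx*. *Dusp9*, the third cytoplasmic ERK phosphatase, was below the filter at 0.111 CPM with vehicle and 0.0435 CPM with MCH. The tyrosine phosphatases that dock on MAP kinases, *Ptpn5* and *Ptprr*, had −0.074 and 0.13, and *Ptpn7* was below the filter.

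Of 14 MAP kinases, 13 were tested, with a median of −0.015 and a range from −0.17 in *Mapk6* to 0.21 in *Mapk15*. *Mapk3*, which encodes an ERK, differed by 0.027 on the log2 scale, with a standard error of 0.054. The JNK genes, *Mapk8*, *Mapk9* and *Mapk10*, had −0.015, −0.045 and −0.009, and *Mapk14*, the main p38 gene, had 0.056. *Mapk6*, an atypical MAP kinase, fell with the replicate block, against 3.98% of all genes called in that fit, and no other MAP kinase passed. All 7 MAP kinase kinases were tested, between −0.15 in *Map2k3* and 0.12 in *Map2k6*, and none passed in either fit.

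Among 26 tested genes for RAS, RAF, scaffolding KSR proteins and MAP3 kinases, values ranged from −0.24 in *Map3k8* to 0.20 in *Ksr2*, with a median of −0.014. *Map3k9* fell and *Taok1*, *Ksr1* and *Ksr2* rose with the replicate block, against 3.98% of all genes called in that fit. Of these 4, *Map3k9* and *Ksr1* also passed with replicates 1 and 2 against 3 and 4 as the block. Among 15 scaffolds and downstream kinases, from −0.19 in *Rps6ka2* to 0.15 in *Mapkapk3*, *Rps6ka2* fell with the replicate block and the median was −0.036.

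A list of 11 genes known as outputs of ERK signaling, without the phosphatases, had a median of −0.15 and a range from −0.53 in *Spry2* to 0.20 in *Etv1*. In the main fit 2 of the 11 fell, the feedback inhibitors *Spry2* and *Spry4*, against 0.207% of all genes called lower. The list was chosen with earlier results of these data known, and the paper had reported *Spry2* as downregulated. The shares over all genes are therefore no independent test of the list. *Spry4* had a log2 fold change of −0.33 (standard error 0.047, edgeR quasi-likelihood, Benjamini–Hochberg adjusted *P* = 0.0281). DESeq2 and limma's voom each called 2 of the 11, against 0.742% and 0.174% of all genes called lower. With the replicate block *Spred2*, *Spred3* and the ETS factor *Etv5* fell as well, and none of the 11 rose. In that fit 2.25% of all genes were called lower. In 6 of the 11 the MCH-treated wells were lower without overlap, against 2.96% of all genes tested.

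**Figure D5:**
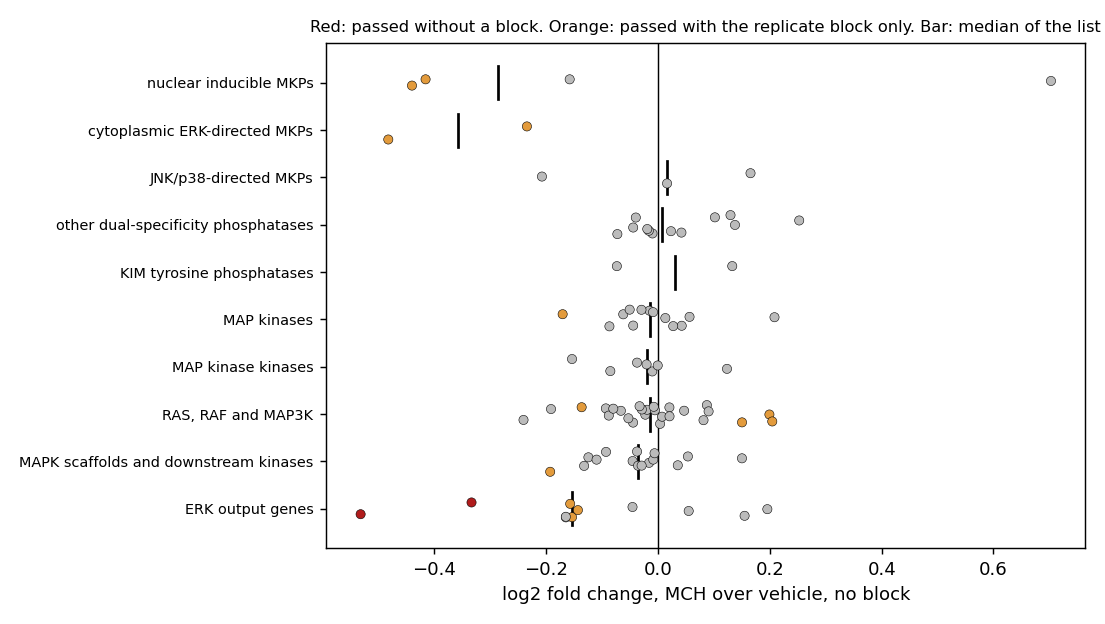
Log2 fold change of MCH over vehicle without a block (x axis) for each tested gene, by list (y axis). The lists are phosphatase classes and MAP kinase pathway lists, and a black bar marks the median of each. Points are red for genes that passed without a block, orange for those that passed with the replicate block only, and gray otherwise. The medians of the nuclear (−0.29) and cytoplasmic (−0.36) phosphatases and of the ERK output genes (−0.15) lie below 0, and those of the other lists lie between −0.036 and 0.03.

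Markers of other cells were compared between the treatments in the same way. None passed in edgeR's main fit, in DESeq2 (no adjusted *P* value for 8) or in limma's voom. An unadjusted *P* value under 0.05 (edgeR quasi-likelihood) was found for 1 inhibitory and 1 oligodendrocyte marker, against 8.5% of all genes tested. The medians were 0.03 over 8 neuronal markers (from −0.072 in *Tubb3* to 0.078 in *Camk2a*), −0.12 over 7 of inhibitory neurons (−0.22 in *Vip* to −0.086 in *Slc32a1*) and 0.06 over 8 of astrocytes (0.014 in *Slc1a3* to 0.15 in *Slc1a2*). They were −0.12 over 6 of the oligodendrocyte lineage (−0.20 in *Olig2* to 0.27 in *Cspg4*), −0.0072 over 5 of microglia (−0.11 in *Itgam* to 0.37 in *Cx3cr1*) and −0.057 over 7 of fibroblasts or vessels (−0.30 in *Col1a2* to 0.39 in *Kdr*). With the replicate block 2 of the 7 inhibitory markers, *Gad1* and *Vip*, fell and 1 of the 8 astrocyte markers, *Slc1a2*, rose, and no other marker passed, against 3.98% of all genes called in that fit. Their part in the phosphatase values was not tested.

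For the 3 members with the lowest *P* values, the genes with the most similar profile over the 8 wells were found by the root mean square distance between centered log2 CPM values. For *Dusp6* these were *Zfp275*, *Kcnf1* and *Nppc*, at distances of 0.083, 0.092 and 0.097, where the median over all genes was 0.30. For *Dusp1* they were *Tmem120a*, *Ppp1r35* and *Rasl11b*, at 0.076 to 0.08, and for *Dusp4* *Rassf8*, *Ankrd33b* and *Midn*, at 0.066 to 0.069. The log2 fold changes of these 9 genes lay between −0.44 and −0.30, which the choice by profile fixes, so no test is given for them. Within the family, the closest pairs of profiles were *Dusp1* with *Dusp4* and *Dusp8* with *Dusp14*, both at 0.10. The most distant was *Dusp2* with *Dusp6*, at 0.70.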

How the data were processed

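Poly-A RNA of 8 wells was sequenced as stranded libraries. The authors used salmon, run through nf-core/rnaseq with GRCm38, to quantify them. The deposited gene table holds estimated counts, summed over transcripts and not scaled, and the deposited transcript tables hold estimated counts, effective lengths and TPM. Neither salmon's version nor the annotation was given in the sources used here. Per the labels, R 4.0.3 and DESeq2 were used by the submitters.

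Counts were rounded and tested in R 4.3.3 with edgeR 4.0.16 (TMM, filterByExpr with a minimum count of 10, robust quasi-likelihood fit, Benjamini–Hochberg adjustment over all genes tested). The standard error is the log2 fold change over the square root of F. DESeq2 1.42.0 and limma 3.58.1 served as alternatives. Symbols and coordinates are from GENCODE vM21, which named 98.8% of the genes. TPM were summed to genes. Pair differences were tested on log2 CPM (prior count 2) over the 70 assignments of treatments to wells. The members and lists were chosen with earlier results of these data known. Named genes are all members, list members that passed, the lowest and highest of each list, and the nearest 3 profiles of the 3 members with the lowest *P* values. The test was tried on simulated counts.

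Both treatments carry replicate numbers 1 to 4 in the labels. The deviations of wells from their treatment mean in log2 CPM correlated at 0.445 to 0.545 between wells of the same number, at 0.475 to 0.521 between replicates 1 and 2 or 3 and 4 of different number, and at −0.548 to −0.438 otherwise. Wells of the same number were not always closer than other wells on their side, and the values set apart replicates 1 and 2 from 3 and 4. The numbers come from the labels, which do not say what a number marks.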

Additional observations from a re-analysis of the deposited data

Results flagged for a closer look

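MCH replicate 1 had 9.615 CPM of *Dusp16*, while MCH replicates 2 to 4 had 11.8 to 12.2 CPM, a gap past Dixon's 95% limit. It was the only such well among the 20 groups of 4 wells examined (10 genes, both treatments), where chance flags about 1 group in 20. Without MCH replicate 1 the log2 fold change of *Dusp16* was 0.24 and did not pass (edgeR quasi-likelihood, Benjamini–Hochberg adjusted *P* = 0.664).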

How the results depend on the processing

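The number of phosphatase genes called was 0 in the main fit, 2 with no filter on low counts (*Dusp1* and *Dusp6*), 3 with DESeq2 and 4 with the replicate block or with a block of replicates 1 and 2 against 3 and 4. It was 0 to 1 without 1 well. Over all genes, 35 were called in the main fit, 157 with DESeq2, 596 with the replicate block, 668 with the block of replicates 1 and 2 against 3 and 4, 7 with the transcript length offset and 4 to 29 without 1 well. The replicate block changed no call among the 10 genes other than those of *Dusp1*, *Dusp4*, *Dusp6* and *Dusp7*. With the length offset, *Dusp8* and *Dusp14* turned to −0.0196 and −0.031. The log2 difference between *Dusp1* and *Dusp4* ranged from −0.067 to 0.041 without 1 well and turned to 0.011, 0.041 and 0.0027 without vehicle replicate 4, MCH replicate 1 and MCH replicate 4. For these changes the cause was not tested. With 4 wells against 3, the exact test cannot go below 0.0571. At 8 to 30 counts per well, *Dusp2* had a standard error of 0.30, and even its change of 0.70 did not pass in any fit.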
